A study of Mus musculus with 24 samples.

Results

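The 49 genes described here encode proteins of the sarcomere, its Z-disc and its thick filament, with the factors that assemble and maintain them. They were taken as a named list of genes in mm10 RefSeq, and all 49 were found among the 21000 protein-coding genes of that annotation. H3K27ac, the acetylated form of histone H3 found at enhancers and promoters in use, was mapped by ChIP-Seq in myofibers isolated from the quadriceps. The C57BL/6 mice were vehicle-treated females, vehicle-treated males, and weekly prednisone–treated females and males studied 4, 6 and 8 days after the fifth weekly injection. The dose was 1 mg/kg, treatment began at 10 weeks of age, and the vehicle was DMSO in PBS, which weekly treated mice also received on the days between prednisone injections. A group comprised 2 H3K27ac libraries and 1 input, but only 1 list of peaks was at hand for each of the 8 groups, so values per library, replicate errors and tests between groups could not be had.

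The sarcomere is the contractile unit of striated muscle. Thin filaments of actin are anchored at the Z-disc and slide along thick filaments of myosin, which are joined at the M-band, while titin spans from Z-disc to M-band. Fast and slow fibers use different isoforms of many of these proteins, and the quadriceps of the mouse is made up mostly of fast fibers. Genes that define a cell type often carry H3K27ac over long stretches of the gene body, beyond the start.

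A gene was counted in a list when a peak overlapped, by 1 bp or more, the window within 10 kb of any of its transcription starts. Body cover is the percentage of the bases from the first to the last base of the gene that lay under peaks. The depth of the lists was 27.5 M tags for vehicle-treated females and 49.0, 30.6 and 39.7 M at days 4, 6 and 8 in females, and 31.6 M for vehicle-treated males and 7.52, 50.5 and 32.1 M at days 4, 6 and 8 in males. The lists held 17482 (male day 4) to 123249 (female day 6) peaks, and the peaks covered 12.7 to 159 megabases. All 10 myofiber marker genes had a peak in their window in 7 of the lists, and in the male day 4 list 9 did, all but Myh4. Wilson 95% confidence intervals are given for shares of genes or of peaks and cover counting error only. In bulk chromatin, fewer myofiber nuclei and less acetylation per nucleus cannot be told apart.

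The sarcomere genes had H3K27ac near their starts more often than protein-coding genes in general, in each of the 8 lists. In females, 40 of the 49 genes had a peak within 10 kb of a start in the vehicle list (81.6%, interval 68.6%–90.0%), against 45.8% of all genes. The number was 46 at day 4 (93.9%, 83.5%–97.9%, all genes 67.3%), 48 at day 6 (98.0%, 89.3%–99.6%, all genes 78.3%) and 46 at day 8 (93.9%, all genes 71.8%). In males, 48 of the 49 genes had such a peak in the vehicle list (98.0%, all genes 72.2%). The male number was 31 at day 4 (63.3%, 49.3%–75.3%, all genes 41.6%), 41 at day 6 (83.7%, 71.0%–91.5%, all genes 44.1%) and 36 at day 8 (73.5%, 59.7%–83.8%, all genes 44.3%). In every list the interval of the sarcomere genes lay above the share of all genes. A peak over the gene body was found for 44, 46, 48 and 46 sarcomere genes in the female lists of vehicle, day 4, day 6 and day 8 (all genes 45.3%, 66.6%, 77% and 71%). In the male lists this number was 47, 30, 40 and 36 (all genes 70%, 39.7%, 43.1% and 43.3%).

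A start itself was under a peak less often, counting any start of a gene. In females this was so for 25 sarcomere genes in the vehicle list and for 38, 45 and 43 at days 4, 6 and 8 (all genes 15.1%, 45.9%, 62.6% and 56.2%). In males it was so for 33 genes in the vehicle list and for 17, 22 and 24 at days 4, 6 and 8 (all genes 39.9%, 20.4%, 20.2% and 25.9%). The 4 longest lists had a peak near 46 to 48 of the sarcomere genes and the 4 shortest near 31 to 41. When each list was cut to the 17482 peaks of highest findPeaks score, as many as the shortest list holds, 37, 32, 36 and 31 of the 49 genes had a peak in the female lists (all genes 32.6%, 41.2%, 42.2% and 42.0%). In the male lists 33, 31, 39 and 36 did (all genes 41.2%, 41.6%, 36.9% and 42.7%). The vehicle list was then the highest of the female lists for the sarcomere genes and the lowest for all genes, while among the male lists day 6 was the highest for the sarcomere genes and the lowest for all genes. The share of the sarcomere genes stayed above that of all genes in all 8 lists.

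**Figure D1:**
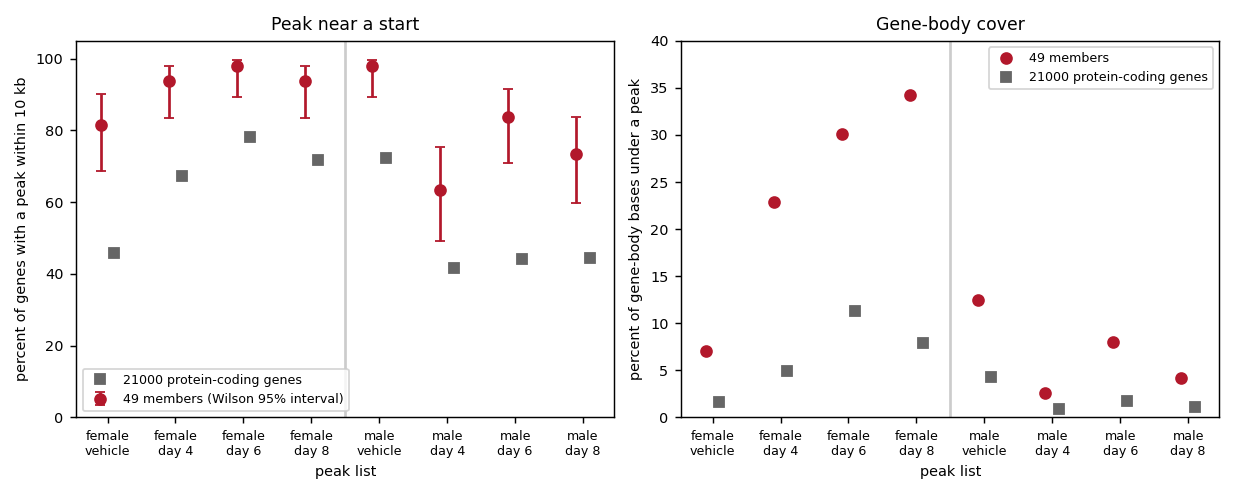
The left panel plots the percentage of genes with an H3K27ac peak within 10 kb of a start in each of the 8 lists, for the 49 sarcomere genes (circles, bars are Wilson 95% intervals) and for 21000 protein-coding genes (squares), and the right panel plots the percentage of gene-body bases under peaks. The sarcomere genes lie above all genes in every list, and their body cover is highest at female day 8, at 34.3%.

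Peaks covered more of the bodies of sarcomere genes than of other genes. The 49 bodies span 2108 kb, of which 7.01% lay under peaks in the female vehicle list, 22.9% at day 4, 30.1% at day 6 and 34.3% at day 8. Across all protein-coding genes these values were 1.61%, 4.90%, 11.3% and 7.87%. In males, body cover was 12.5% in the vehicle list, 2.56% at day 4, 8.03% at day 6 and 4.20% at day 8, against 4.28%, 0.853%, 1.73% and 1.13% of all gene bodies. The cover of the sarcomere genes was thus 2.67 times (female day 6) to 4.67 times (female day 4) that of all genes. Ttn and Neb, which encode the giant proteins titin and nebulin, are the longest of these genes, and without both the cover was 8.20%, 25.5%, 35.2% and 37.4% in females and 14.8%, 3.18%, 9.02% and 5.06% in males. With lists of equal length the cover of the 49 bodies was 4.98%, 11.4%, 10.1% and 14.1% in females (all genes 0.922%, 2.05%, 2.63% and 2.60%) and 4.55%, 2.56%, 5.71% and 4.08% in males (all genes 1.30%, 0.853%, 1.19% and 1.05%). The female lists of treated mice then lay above vehicle for both, and the male day 6 list lay above vehicle for the sarcomere genes and below it for all genes. Equal length fixes the number of peaks but not their width, on which body cover also depends. In the full female lists, peaks of 5 kb or wider were 0.116% for vehicle and 1.58%, 3.20% and 3.31% at days 4, 6 and 8.

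Most sarcomere genes differed from vehicle in the same direction as the whole of their list. In females, 39 of the 49 had more of the body covered at each of days 4, 6 and 8 than in vehicle, as did 55.3% of all genes. At day 4, 44 of the 49 had more and 3 had less (all genes 60.7% and 7.86%). At day 6 the numbers were 43 and 4 (all genes 72.5% and 6.14%), and at day 8 they were 46 and 1 (all genes 66.5% and 6.93%). In males, 36 of the 49 had less of the body covered at each of days 4, 6 and 8 than in vehicle, as did 54.6% of all genes. At day 4, 47 had less and none had more (all genes 66.1% and 4.25%). At day 6, 37 had less and 10 had more (all genes 59% and 12.4%), and at day 8, 43 had less and 4 had more (all genes 63.6% and 7.08%). The lists of treated mice of a sex share 1 vehicle list, so these counts are not independent of each other.

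**Figure D2:**
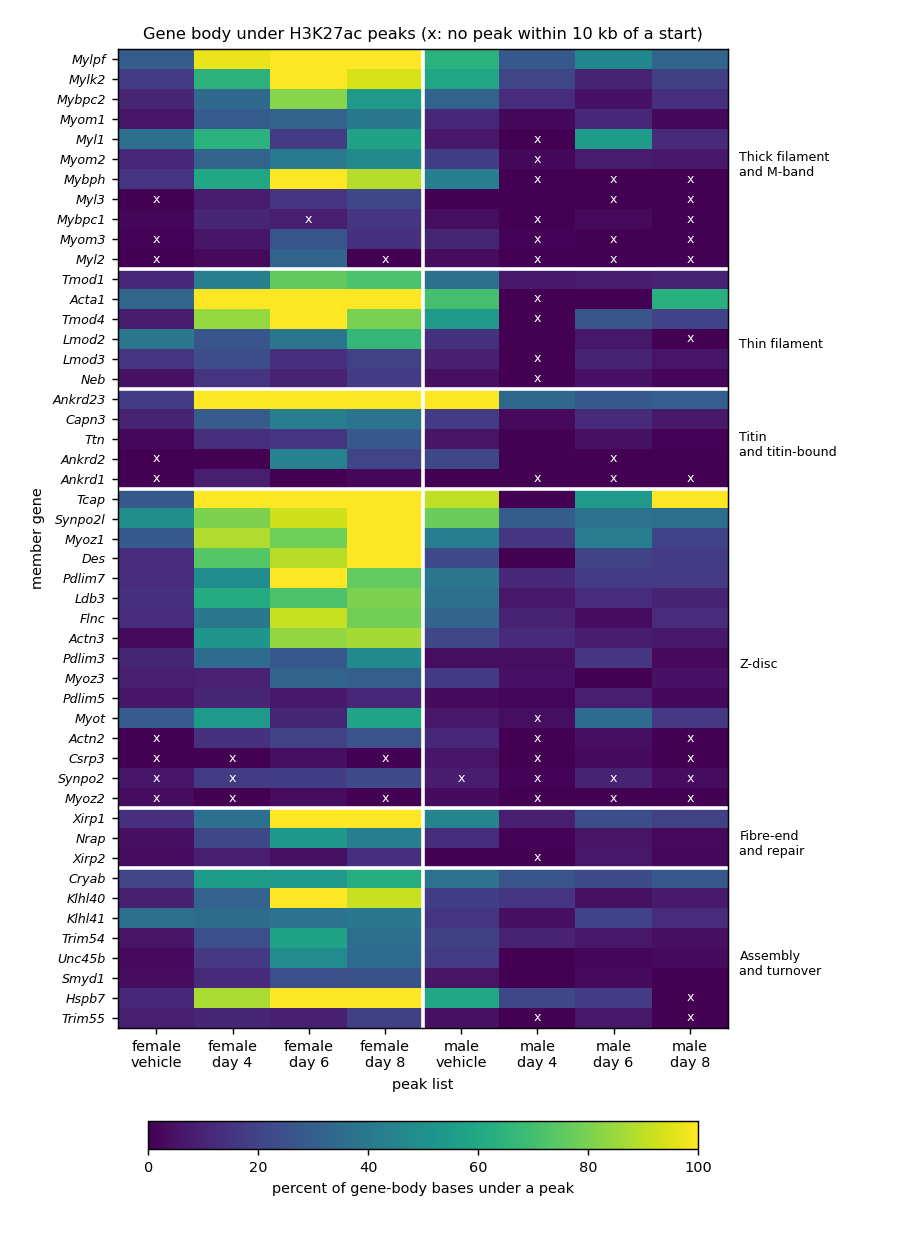
Each row is a sarcomere gene, grouped by role, each column is a peak list, and the color gives the percentage of gene-body bases under H3K27ac peaks from 0 to 100. A cross marks a list with no peak within 10 kb of a start of that gene. Full cover is seen in the female lists of days 4, 6 and 8 at the short genes Tcap, Acta1 and Ankrd23, and crosses gather at Myoz2, Synpo2, Csrp3 and Myl2.

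The peaks spread further into the gene than upstream of it. In bins of 500 bp around the most upstream start, the single bin with peaks at the most sarcomere genes touched the start in 4 of the 8 lists. In 3 lists, those of female vehicle, day 4 and day 8, a bin touching the start was tied with a bin further inside the gene, and in the male day 6 list the highest bin lay from 500 to 1000 bp inside. In the female vehicle list the highest bins held a peak at 57.1% of the genes, and at female day 6 the highest bin held one at 93.9%. The mean over the bins of the 10 kb downstream was 25.6% and over the bins of the 10 kb upstream 14.6% in the female vehicle list. At female day 8 these means were 66.3% and 40.4%, and in the male vehicle list they were 38.2% and 26.9%. Across all genes the same means were 5.20% and 4.23% in the female vehicle list and 20.8% and 15.3% at female day 8. The downstream mean was above the upstream mean in all 8 lists, for the sarcomere genes and for all genes.

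**Figure D3:**
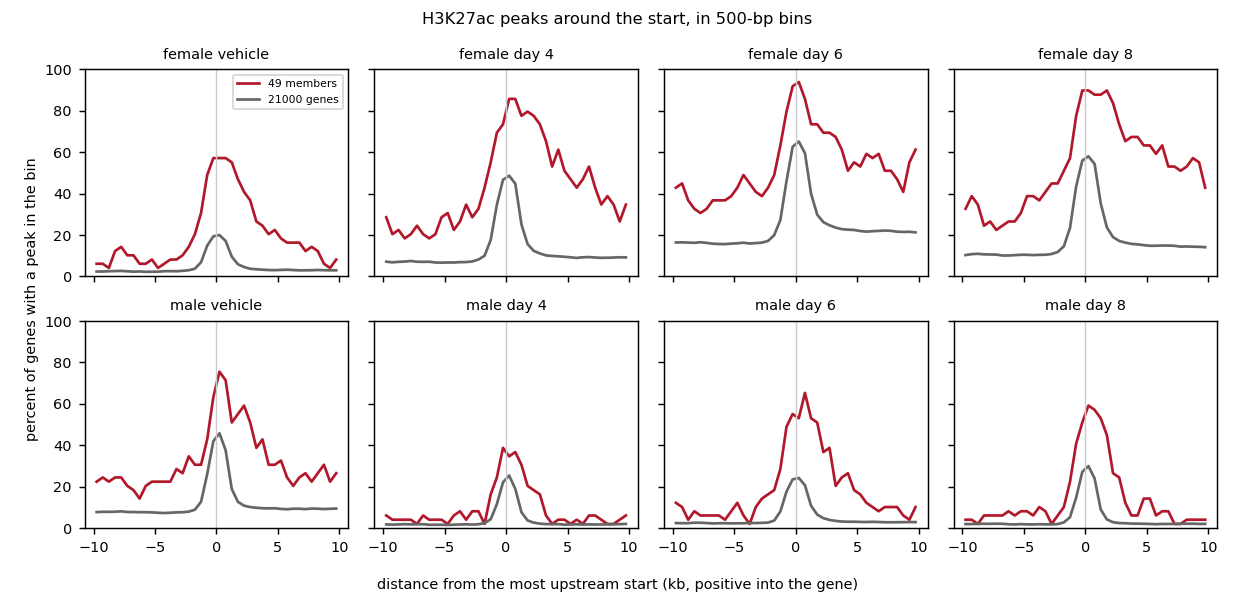
Each panel is a peak list and plots the percentage of genes with an H3K27ac peak in each 500-bp bin against the distance from the most upstream start in kb, positive into the gene, for the 49 sarcomere genes and for 21000 genes. The sarcomere genes lie above all genes around the start in every panel, and at female day 8 the mean over the bins inside the gene is 66.3% against 40.4% upstream.

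A core of 27 sarcomere genes had a peak within 10 kb of a start in every list (55.1%, interval 41.3%–68.1%), against 24.6% of all genes. None of the 49 lacked a peak in all lists, as 12.6% of all genes did. The 27 genes were Actn3, Ankrd23, Capn3, Cryab, Des, Flnc, Klhl40, Klhl41, Ldb3, Mybpc2, Mylk2, Mylpf, Myom1, Myoz1, Myoz3, Nrap, Pdlim3, Pdlim5, Pdlim7, Smyd1, Synpo2l, Tcap, Tmod1, Trim54, Ttn, Unc45b and Xirp1. A further 10 had a peak in 7 lists (Acta1, Hspb7, Lmod2, Lmod3, Myl1, Myom2, Myot, Neb, Tmod4 and Xirp2), and Ankrd2 and Trim55 had one in 6. Actn2, Mybpc1, Mybph and Myl3 had a peak in 5 lists, Ankrd1 and Myom3 in 4, Csrp3 and Myl2 in 3, and Myoz2 and Synpo2 in 2. Without the male day 4 list, which rests on the fewest tags, 35 genes had a peak in every remaining list (71.4%, all genes 28.8%). With a fold over input of at least 4, 17 had one in every list (34.7%, all genes 11.6%), with a window of 1 kb 19 did (38.8%, all genes 16.6%), and with lists of equal length 12 did (24.5%, all genes 7.63%). Another protein-coding start lay within the window of 14 of the 49 genes, 11 of them among the 27, and with only peaks whose nearest start was that of the gene itself 25 genes were left (all genes 17.2%).

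At 8 genes, a start itself was under a peak in all 8 lists, as at 6.78% of all genes. These were Cryab, a small heat shock protein that protects desmin and titin; Flnc, the muscle filamin; Mylpf, the regulatory light chain of fast myosin; Synpo2l, an actin-binding protein of the Z-disc; and Ldb3, Pdlim3, Pdlim5 and Pdlim7, which share a PDZ domain and LIM domains. Ldb3, Pdlim3, Pdlim5 and Pdlim7 are all the members of that family among the 49. Any start of a gene counted, so genes with more starts are counted more readily, and the start could differ between lists. Cryab, Flnc, Mylpf, Synpo2l, Ldb3 and Pdlim5 have 2 starts each, and Pdlim3 and Pdlim7 have 1. Pdlim7 also had the highest mean rank by normalized tags per kb within the lists. Its strongest peak lay at a mean percentile of 96.3 of all peaks of a list, followed by Myoz3 at 95.4 and Synpo2l at 95.03. At Pdlim7, on chromosome 13 from 55497487 to 55513473, the widest peak measured 2261 bp in the female vehicle list and 7222, 20191 and 9761 bp at days 4, 6 and 8. In males it measured 4193 bp for vehicle and 1269, 3048 and 3183 bp at days 4, 6 and 8. In each list it reached across the start.

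For the genes with a peak, the strongest peak ranked by normalized tags per kb had a median percentile of 81.1 in the female vehicle list and 94.2, 93.0 and 93.5 at days 4, 6 and 8. In the male lists it was 87.7 for vehicle and 55.0, 87.8 and 80.3 at days 4, 6 and 8. All genes with a peak had medians of 72.3, 88.6, 93.7 and 91.4 in females and 79.3, 62.6, 85.7 and 78.1 in males. The sarcomere genes were thus lower than all genes at female day 6 and male day 4 by this measure. The strongest of several peaks is taken, so genes with more peaks rank higher.

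Body cover was highest, as a mean over the lists, at Tcap (71.5%), Ankrd23 (63.7%), Synpo2l (62.9%), Mylpf (62.1%) and Acta1 (58.4%). Tcap encodes telethonin, which caps titin at the Z-disc, and lies on chromosome 11 from 98383811 to 98384953, a body of 1143 bp. Its cover was 28.2% in the female vehicle list and 100% at days 4, 6 and 8, and in males 90.3% in the vehicle list, 0% at day 4, 53.9% at day 6 and 100% at day 8. Acta1 encodes skeletal muscle actin of the thin filament. Its cover was 33.2% in the female vehicle list and 100% at days 4, 6 and 8, and in males 70.4% for vehicle, 0% at days 4 and 6, and 63.6% at day 8. At male day 6 Acta1 had a single peak in its window, which lay upstream of the body. Ankrd23 encodes an ankyrin repeat protein that binds titin, and was fully covered in 4 lists, at female days 4, 6 and 8 and in vehicle-treated males. Its cover was 17.5% in the female vehicle list and 33.9%, 28.0% and 30.0% at male days 4, 6 and 8. The whole body lay under peaks at 3 sarcomere genes at female day 4, 11 at day 6 and 8 at day 8, against 0.805%, 3.22% and 1.77% of all genes. In the male lists this was so for Ankrd23 in vehicle and Tcap at day 8.

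Thick filament and M-band genes ranged from full cover to none. Mylpf, on chromosome 7 from 127208848 to 127214288, was covered to 29.5% in the female vehicle list and to 96.9%, 100% and 100% at days 4, 6 and 8. In males its cover was 63.8% for vehicle and 27.6%, 46.8% and 32.5% at days 4, 6 and 8. Mylk2, the kinase that phosphorylates the regulatory light chain, was covered to 17.2%, 64.1%, 100% and 94.1% in the female lists and 59.2%, 20.8%, 9.58% and 18.8% in the male lists. Mybph, a relative of myosin-binding protein C, was covered to 15.5%, 59.4%, 100% and 89.0% in females and 42.7% in vehicle-treated males, and had no peak within 10 kb in the male lists of days 4, 6 and 8. The myomesins cross-link thick filaments at the M-band. Myom1 was covered to 5.63%, 29.0%, 32.0% and 40.3% in females and to 11.4%, 2.21%, 10.9% and 1.97% in males, and Myom2 followed the same order in females, with 11.0%, 31.9%, 41.6% and 47.8%. As a group, the 11 thick filament and M-band genes had a peak within 10 kb at 8, 11, 10 and 10 genes in females and 11, 5, 7 and 6 in males. The share of all genes with such a peak was 45.8%, 67.3%, 78.3% and 71.8% in females and 72.2%, 41.6%, 44.1% and 44.3% in males.

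Of the thin filament genes, Neb and Acta1 encode the filament itself, while Tmod1, Tmod4, Lmod2 and Lmod3 bind its pointed end. All 6 had a peak within 10 kb in the 4 female lists (all genes 45.8%, 67.3%, 78.3% and 71.8%). All 6 also had one in vehicle-treated males and at male day 6 (all genes 72.2% and 44.1%). At male day 4, 2 had one (all genes 41.6%), and at male day 8, 5 did (all genes 44.3%). Tmod4 cover was 7.81%, 84.3%, 100% and 80.0% in females and 53.7%, 0%, 26.5% and 20.1% in males. Tmod1 cover was 11.4%, 42.8%, 75.6% and 71.7% in females and 36.6%, 6.88%, 7.55% and 9.60% in males. Neb, with a body of 202159 bp, had 13, 29, 23 and 31 peaks over its body in females and 14, 1, 14 and 6 in males.

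Titin itself is the longest of the 49 genes. Ttn lies on chromosome 2 from 76703980 to 76982557, and in females it had 9 peaks over its body for vehicle and 45, 53 and 62 at days 4, 6 and 8. In males it had 25 peaks for vehicle and 3, 15 and 5 at days 4, 6 and 8. Its cover was 2.01%, 13.6%, 15.5% and 28.0% in females and 5.34%, 0.588%, 4.48% and 0.946% in males. Capn3, a protease held by titin, had a peak in every list and a cover of 9.76%, 28.9%, 42.7% and 38.2% in females and 17.6%, 2.65%, 11.8% and 6.84% in males. The 3 genes of the fiber end and of sarcomere repair, Nrap, Xirp1 and Xirp2, all had a peak in 7 lists, and 2 did at male day 4. All 8 assembly and turnover genes, which include the myosin chaperone Unc45b, the methyltransferase Smyd1 and the regulators Klhl40 and Klhl41, had one in 6 lists, with 7 at male day 4 and 6 at male day 8. Among the 16 Z-disc genes, 12, 13, 16 and 14 had a peak in the female lists and 15, 11, 14 and 12 in the male lists. Beside these groups, the share of all genes was 45.8%, 67.3%, 78.3% and 71.8% in females and 72.2%, 41.6%, 44.1% and 44.3% in males.

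The genes placed in a fast-fiber group carried H3K27ac in more lists than those placed in a slow-fiber group. Both groups were formed with earlier results of these data known, so their contrast is a description. The fast group was Actn3, Mybpc2, Mylpf, Myl1, Myoz1, Myoz3, Tmod4 and Mylk2, and the slow group was Myl2, Myl3, Myoz2, Csrp3, Mybpc1 and Ankrd2. All 8 fast genes had a peak within 10 kb in 7 of the 8 lists, and 6 of the 8 did at male day 4. The slow genes with a peak were 1 of 6 in vehicle-treated females, 4, 5 and 3 at days 4, 6 and 8, 6 in vehicle-treated males, and 2, 2 and 1 at days 4, 6 and 8. Over all genes, the share with such a peak was 45.8%, 67.3%, 78.3% and 71.8% in the female lists and 72.2%, 41.6%, 44.1% and 44.3% in the male lists. The median was 8 lists for fast genes (range 7–8), 4 lists for slow genes (range 2–6) and 5 lists for all genes. Median body cover was 14.0%, 64.0%, 82.9% and 83.4% for fast genes in the female lists and 0%, 1.21%, 12.0% and 7.95% for slow genes. In the male lists it was 37.4%, 12.2%, 18.1% and 16.1% for fast genes and 3.53%, 0%, 0% and 0% for slow genes. The gene bodies had a median GC content of 50.1% in the fast group and 47.5% in the slow group, and a median length of 14240 and 19202 bp.

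**Figure D4:**
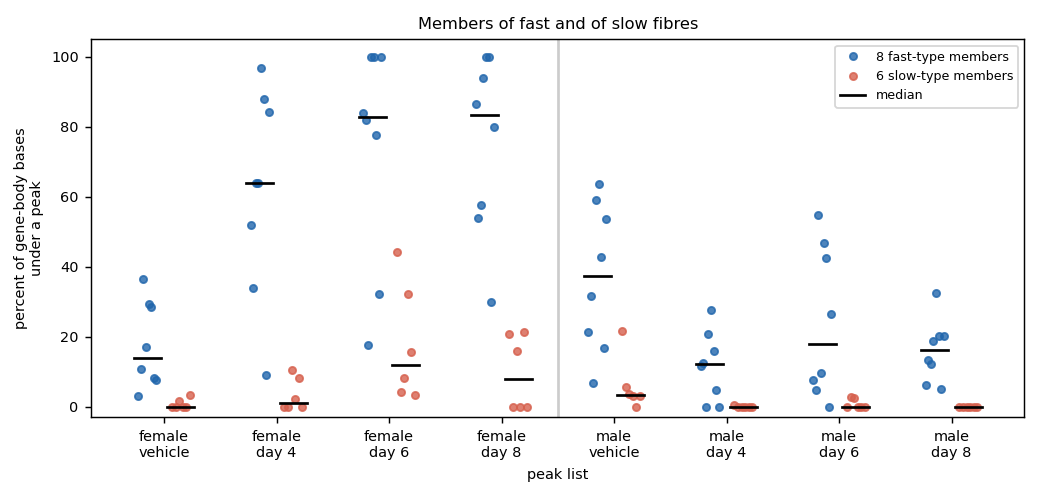
Points give the percentage of gene-body bases under H3K27ac peaks for each of 8 fast-type and 6 slow-type sarcomere genes in each of the 8 peak lists, and bars give the median of the group. The fast-type median is above the slow-type median in every list, from 14.0% against 0% in vehicle-treated females to 83.4% against 7.95% at female day 8. The groups were formed with earlier results of these data known.

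The same order was seen within 5 of 6 pairs of related genes, which were chosen after the values were seen. Mylpf and Myl2 are the regulatory light chains of fast and slow myosin, and had a peak in 8 and 3 lists. Myl1 and Myl3 are the essential light chains, with 7 and 5 lists. Mybpc2 and Mybpc1 are the fast and slow myosin-binding proteins C, with 8 and 5 lists. Myoz1 and Myoz2 are the calsarcins of fast and slow fibers, which tie calcineurin to the Z-disc, with 8 and 2 lists. Actn3 is the α-actinin of fast fibers and Actn2 that of all fibers and heart, with 8 and 5 lists. Tmod4 and Tmod1 went the other way, with 7 lists for Tmod4 of the fast group and 8 for Tmod1. Actn2 and Tmod1 belong to neither the fast nor the slow group. The other genes of the pairs were already counted in these groups, so the pairs are not a separate result. The fast gene had more lists than its partner in 5 of the 6 pairs under each of the 6 alternatives too, which score the same genes in the same lists. Beside these, the heart-type genes, such as Myh6 and Tnnt2, with the cardiac hormone gene Nppa, had a peak at 1, 4, 8 and 7 of 8 genes in females and at 8, 1, 1 and 1 in males. The other sarcomere genes, the myosin heavy chains, troponins and tropomyosins, had one at 10, 12, 14 and 12 of 15 genes in females and at 13, 8, 9 and 8 in males. The share of all genes was 45.8%, 67.3%, 78.3% and 71.8% in females and 72.2%, 41.6%, 44.1% and 44.3% in males.

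In females, 9 of the 49 sarcomere genes had no peak within 10 kb in the vehicle list. Of these, 6 gained one by day 4 (12.2% of the 49, interval 5.73%–24.2%, all genes 26%), all 9 by day 6 (18.4%, 9.98%–31.4%, all genes 35.4%) and 6 by day 8 (12.2%, all genes 29.7%). Few sarcomere genes could gain a peak, since 40 had one already. Of all genes with no vehicle peak, 48.0% gained one at day 4, 65.3% at day 6 and 54.8% at day 8. Actn2, Ankrd1, Ankrd2, Myl3 and Myom3 had no vehicle peak within 10 kb of a start and had one at each of days 4, 6 and 8. Of these, Ankrd1 and Ankrd2 encode stress-responsive proteins that bind titin, Myl3 the slow essential light chain, and Myom3 a myomesin. Actn2 had 1, 2 and 2 peaks in the window at days 4, 6 and 8, Myom3 had 3, 8 and 3, and Myl3 had 1, 7 and 3. At day 4 the single window peaks of Actn2, Ankrd1 and Myl3 ranked at percentiles 21.4, 21.0 and 34.6 by tags per kb. At day 6 their strongest window peaks ranked at 91.1, 34.3 and 76.8. Over the body of Actn2 the vehicle list held 1 peak. The share of all genes with no vehicle peak and a peak at each of these days was not counted. Losses were 0 at day 4 (all genes 4.47%), 1 at day 6, Mybpc1 (all genes 2.88%), and 0 at day 8 (all genes 3.7%). The vehicle window of Mybpc1 held 1 peak of 500 bp, while its body cover was 1.73% for vehicle and 8.39% at day 6. A count of 0 of 49 has an interval of 0% to 7.27%.

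In males, Synpo2 alone had no peak in the vehicle list, and it had none at days 4, 6 and 8 either, so that no gene gained one (all genes 1.38%, 2.72% and 1.88%). Losses were 17 of 49 at day 4 (34.7%, interval 22.9%–48.7%, all genes 32%), 7 at day 6 (14.3%, 7.10%–26.7%, all genes 30.9%) and 12 at day 8 (24.5%, 14.6%–38.1%, all genes 29.8%). The interval of the losses at day 6 lay below the share of all genes, and those of days 4 and 8 held it. These shares differ in base, since 48 of the 49 genes had a vehicle peak to lose, against 72.2% of all genes. With a fold over input of at least 4, losses at day 6 were 32.7% of the 49 (all genes 35.5%). Of the 48 sarcomere genes with a vehicle peak, 17, 7 and 12 lost it at days 4, 6 and 8. Of all genes with a vehicle peak, 44.3%, 42.8% and 41.2% lost it at these days. Ankrd1, Mybph, Myl2, Myom3 and Myoz2 had a vehicle peak within 10 kb of a start and none there at each of days 4, 6 and 8. The share of all genes with this pattern was not counted. At Myoz2, Myl2 and Ankrd1 the vehicle list held 1, 2 and 1 peaks in the window, with a widest peak of 500, 668 and 500 bp, while Mybph held 5 peaks with a widest of 2228 bp. With lists of equal length, losses in females were 9, 8 and 9 of 49 at days 4, 6 and 8 (all genes 8.89%, 10.6% and 10.01%) and gains were 4, 7 and 3 (all genes 17.5%, 20.3% and 19.5%). Gains in males were then 4, 11 and 8 (all genes 12.5%, 9.96% and 12.0%) and losses 6, 5 and 5 (all genes 12.0%, 14.3% and 10.5%). Losses of sarcomere genes thus outnumbered gains in females at all of these days, and gains outnumbered losses at male days 6 and 8. The male day 4 list rests on 7.52 M tags, and depth and treatment cannot be told apart there.

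Of the female day 4 peaks at these genes that overlapped no vehicle peak, most overlapped a peak at day 6, and most did at day 8. The female vehicle list rests on 27.5 M tags and holds 38861 peaks, against 49.0 M and 67503 at day 4. The lists of days 6 and 8 hold 123249 and 81696 peaks. Depth, list length and treatment cannot be told apart in which peaks were absent from vehicle or present later. A peak was placed at a sarcomere gene when it overlapped a window or a body. In females 365 day 4 peaks did so, and 260 of these overlapped no vehicle peak (71.2%, all peaks 81.9%). Of the 260, 155 overlapped a peak at day 6 (59.6%, 53.6%–65.4%) and 169 one at day 8 (65.0%, 59.0%–70.5%), against 50.3% and 43.6% of all such peaks. In males, 92 day 4 peaks lay at sarcomere genes and 24 overlapped no vehicle peak (26.1%, all peaks 45.4%). Of the 24, 7 were present at day 6 (29.2%, 14.9%–49.2%) and 4 at day 8 (16.7%, 6.68%–35.9%), against 5.84% and 5.01% of all such peaks. Many peaks can lie at 1 gene, and Ttn alone held 45 over its body at female day 4. Such peaks are not independent, so the intervals of these shares of peaks are too narrow in both sexes. Peaks of the vehicle lists were also present later more often at these genes than over the whole list. The values of all peaks are not limited to gene windows and bodies, and peaks at other genes were not scored apart. In females, 74.0%, 66.8% and 81.6% of 196 vehicle peaks overlapped a peak at days 4, 6 and 8 (all peaks 36.6%, 39.6% and 41.0%). In males, 18.3%, 27.9% and 23.4% of 333 did (all peaks 10.3%, 13.1% and 12.1%). Wider peaks overlap more readily, and at female day 4 the median width was 761 bp at sarcomere genes and 625 bp over the list. Peaks of 5 kb or wider made up 1.53%, 9.32%, 8.82% and 12.3% of the peaks at sarcomere genes in the female lists, against 0.116%, 1.58%, 3.20% and 3.31% of all peaks. In the male lists they made up 0.901%, 0%, 0.535% and 0%, against 0.279%, 0.0972%, 0.326% and 0.249%.

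Base composition moved with body cover to a different degree in each list. Across the 49 genes, Spearman's rho of GC content with body cover was 0.21, 0.47, 0.84 and 0.64 in the female lists and 0.74, 0.34, 0.01 and 0.38 in the male lists. Across all 21000 genes it was -0.04, 0.33, 0.66 and 0.48 in females and 0.51, 0.20, -0.02 and 0.14 in males. These are correlations across genes of the same libraries, and genes are not independent replicates. At female day 6, the 25 genes with a GC content at or above the median of 47.6% had a median cover of 91.1% and the other 24 had 18.1%. At male day 6 these values were 7.57% and 6.46%. At Myl1, on chromosome 1, with a GC content of 38.1%, cover was 36.7%, 64.0%, 17.6% and 57.8% in females and 6.91%, 0%, 54.7% and 12.2% in males. At Myot, which encodes the Z-disc protein myotilin, with a GC content of 38.4%, it was 29.0%, 54.3%, 10.3% and 58.5% in females and 6.93%, 3.83%, 35.0% and 16.5% in males. Cover was lower at female day 6 than at both day 4 and day 8 at 12 of the 49 genes (all genes 7.85%), which had a median GC content of 41.8% against 50.1% for the others. The 10 genes with more cover at male day 6 than in vehicle-treated males had a median of 41.8% against 50.0%. Lmod3, Myl1, Myot, Neb, Pdlim3, Pdlim5, Trim55 and Xirp2 were in both sets. These sets were formed after the values were seen, and the part of base composition in the differences between lists was not tested.

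Marker genes of other cells had peaks too, and their numbers differed between lists. The share of all genes with a peak within 10 kb was 45.8%, 67.3%, 78.3% and 71.8% in females and 72.2%, 41.6%, 44.1% and 44.3% in males. Of 5 endothelial markers, 3, 4, 5 and 5 had a peak within 10 kb in the female lists and 5, 3, 5 and 3 in the male lists, with body cover between 1.26% and 25.2%. Of 4 smooth muscle markers, 1, 4, 4 and 4 had one in females and 3, 0, 2 and 1 in males, with cover between 0.387% and 19.1%. Of 5 fibroblast markers, 4 had one in each female list and 2, 1, 2 and 1 in the male lists. Of 4 macrophage markers, 1, 1, 3 and 2 had one in females and 2, 1, 1 and 1 in males, while of 3 satellite cell markers, 1, 3, 2 and 2 had one in females and 3, 1, 1 and 1 in males. Of 4 heart markers, all of them also among the heart-type genes, 0, 1, 4 and 3 had one in females and 4, 0, 0 and 0 in males. Of 4 genes of liver, pancreas and nerve cells, 0, 1, 1 and 1 had one in females and 1, 0, 0 and 0 in males. The body cover of the 10 myofiber markers, 3 of which are among the other sarcomere genes, was 8.38%, 40.6%, 71.6% and 59.6% in females and 25.5%, 5.87%, 7.97% and 11.3% in males. The part of cells other than myofibers in the values of the sarcomere genes was not tested.

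MEF2 proteins and the myogenic factors of the MyoD family bind the regulatory sequences of many muscle genes, MEF2 at an A- and T-rich motif and the MyoD family at the E-box CANNTG. RefSeq promoter sequences on GRCm38.p6, the mm10 assembly, were matched for 37 of the 49 genes, and were not matched for Actn3, Cryab, Lmod3, Mylk2, Myom2, Myot, Myoz1, Myoz3, Neb, Tcap, Trim55 and Xirp1. In the 250 bases upstream of the start, read on both strands, the MEF2 motif was found at 7 of the 37 (18.9%), against 0.487% of 16853 promoters. These were Capn3, Klhl41, Myoz2, Synpo2, Synpo2l, Ttn and Xirp2. The CArG box, bound by serum response factor, was found at Acta1, Ldb3, Myl3 and Myom1 (10.8%, all promoters 1.40%). An E-box was found at 31 of the 37 (83.8%, all promoters 62.5%). The glucocorticoid receptor motif ACANNNTGT was found at none of the 37 (all promoters 5.26%). A match is a run of letters and is not shown to be bound.

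The promoters of 6 genes are printed to set genes with a peak in every list (Synpo2l, Mylpf and Ttn) beside genes with the fewest lists (Synpo2, Myoz2 and Myl2), and were chosen after the motif counts were seen. They run 5′ to 3′ on the strand of the gene, in lower case, with matches to the MEF2 motif and the E-box CANNTG in capitals. No matches overlap one another. The printed bases hold no exon of a curated RefSeq transcript, while predicted transcripts extend the first exon over the last 10 bases at Ttn, 19 at Synpo2 and 16 at Myoz2, and at Mylpf another curated transcript starts further upstream, so that the 250 bases lie in an intron of that transcript. Synpo2l is chr14:20668355-20668604, minus strand, and a peak lay over it in 7 lists, all but that of vehicle-treated males. Mylpf is chr7:127211358-127211607, plus strand, with a peak in 7 lists, all but male day 6. Ttn is chr2:76982548-76982797, minus strand, with a peak in the 4 female lists and at male day 6. Synpo2 is chr3:123236150-123236399, minus strand, with a peak at female days 6 and 8. Myoz2 is chr3:123034988-123035237, minus strand, with a peak in vehicle-treated males. Myl2 is chr5:122092474-122092723, plus strand, with a peak at female day 6.
Synpo2l: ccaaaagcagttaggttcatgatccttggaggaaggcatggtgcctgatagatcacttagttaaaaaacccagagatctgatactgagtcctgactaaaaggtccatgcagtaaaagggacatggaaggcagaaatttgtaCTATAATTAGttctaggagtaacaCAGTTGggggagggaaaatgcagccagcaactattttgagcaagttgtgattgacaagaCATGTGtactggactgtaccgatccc
Mylpf: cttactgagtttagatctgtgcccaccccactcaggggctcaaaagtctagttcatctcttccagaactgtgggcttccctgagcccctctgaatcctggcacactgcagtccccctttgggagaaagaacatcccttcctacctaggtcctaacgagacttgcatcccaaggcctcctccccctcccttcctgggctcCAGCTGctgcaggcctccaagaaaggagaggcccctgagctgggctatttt
Ttn: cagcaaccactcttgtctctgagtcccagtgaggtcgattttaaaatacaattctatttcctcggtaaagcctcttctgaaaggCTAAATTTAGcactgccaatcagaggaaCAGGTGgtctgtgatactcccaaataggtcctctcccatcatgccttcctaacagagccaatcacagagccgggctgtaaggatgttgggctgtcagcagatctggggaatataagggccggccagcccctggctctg
Synpo2: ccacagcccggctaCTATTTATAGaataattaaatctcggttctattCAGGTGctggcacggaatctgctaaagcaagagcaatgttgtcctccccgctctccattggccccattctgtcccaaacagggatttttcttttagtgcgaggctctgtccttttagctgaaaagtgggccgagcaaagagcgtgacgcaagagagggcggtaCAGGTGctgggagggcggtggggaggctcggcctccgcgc
Myoz2: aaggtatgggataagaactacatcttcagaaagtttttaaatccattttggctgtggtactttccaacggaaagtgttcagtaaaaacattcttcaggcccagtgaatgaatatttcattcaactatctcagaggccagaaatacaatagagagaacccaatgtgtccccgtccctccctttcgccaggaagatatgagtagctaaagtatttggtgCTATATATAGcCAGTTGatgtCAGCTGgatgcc
Myl2: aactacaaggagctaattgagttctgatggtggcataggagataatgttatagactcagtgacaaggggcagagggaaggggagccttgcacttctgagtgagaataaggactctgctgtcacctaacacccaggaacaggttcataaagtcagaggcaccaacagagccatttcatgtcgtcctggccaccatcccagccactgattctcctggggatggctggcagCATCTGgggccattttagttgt
Of the genes with the fewest lists, Synpo2 and Myoz2 each hold 1 MEF2 match and 2 E-boxes, as Synpo2l does, and Mylpf holds 1 E-box and 0 MEF2 matches, as Myl2 does. Synpo2 encodes a Z-disc protein related to the product of Synpo2l. It had no peak near its start in 6 lists, but its body of 159650 bp held 13, 11, 26 and 23 peaks in the female lists and 14, 2, 11 and 7 in the male lists. Myoz2 held 2 peaks over its body in both vehicle lists and at female day 6, and none in the other 5 lists. Myl2 held 8 peaks in its window at female day 6, with a widest peak of 3369 bp across the start, 1 at female day 4, 2 in vehicle-treated males, and none in the other 5 lists. Csrp3, which encodes a LIM protein of the Z-disc found in slow fibers and heart, held 2 peaks at female day 6 and in vehicle-treated males and 1 at male day 6.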

How the data were processed

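H3K27ac ChIP-Seq was done by the authors on isolated quadriceps myofibers, with 16 H3K27ac and 8 input libraries. Reads were trimmed with homerTools, aligned to mm10 with Bowtie2 (2.2.6 in the submitters' processing notes, which also name TopHat2 2.1.0) and peaks were called with HOMER findPeaks in histone style, against the input, at 2-fold enrichment or more. The deposited files are 8 peak lists, 1 a group. How the authors combined the 2 libraries of each group is not given in the sources used here. The normalized tag count that the authors deposited is a signal per 10 M tags. The tag counts that the authors deposited are whole in 2 lists, where they gave the depth. The deposited findPeaks score is not scaled for depth, and the deposited ratio over input was used as given. Deposited p-values and input tags were not used.

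In the other lists depth was recovered from the steps between low normalized tag counts, of which 100% were then within 0.0051 of a whole multiple of the step. Starts came from curated transcripts of RefSeq GRCm38.p6, whose coordinates are those of mm10, and bodies from its gene records, which include predicted transcripts. Peaks were scored by an overlap of 1 bp with windows of 10 kb on either side of a start and with gene bodies, and compared with all 21000 protein-coding genes. The name of a list, which gives sex, treatment and day, set its group. No test was made between groups, since each has 1 list. Genes named were those with a peak in every list, in the fewest lists, gained or lost at all of days 4, 6 and 8, or highest in body cover or tags per kb, beside examples of each role. Genes, roles and lists were chosen with earlier results of these data known. Alternatives were a window of 1 kb, a fold over input of at least 4, at least 50% of the peak in the window, lists of equal length, the most upstream start only, the nearest start only, a body share without Ttn and Neb, and leaving out the male day 4 list. The other lists were left out in turn after the data were seen. Overlaps were tested on simulated peaks: bedtools 2.31.1 gave equal covered bases for 2382 of 2382 genes, and 200 of 200 planted cases were recovered. Software was samtools 1.23.1 and Python 3.11.15 with pandas 2.3.3, pysam 0.24.0, numpy 2.4.6, matplotlib 3.10.9 and scipy 1.17.1.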

Additional observations from a re-analysis of the deposited data

Results flagged for a closer look

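The lists of treated mice lay on opposite sides of vehicle in the 2 sexes, and this difference was not tested, since each group has 1 list. In females, the number of sarcomere genes with a peak within 10 kb of a start differed from vehicle by 6, 8 and 6 at days 4, 6 and 8. For males these differences were -17, -7 and -12. The percentage of gene-body bases under peaks differed from vehicle by 15.9, 23.1 and 27.2 percentage points in females and by -9.94, -4.47 and -8.30 in males at days 4, 6 and 8. The lengths of the lists moved in the same directions. With lists of equal length, the gene counts at days 4, 6 and 8 were 32, 36 and 31 against 37 for vehicle in females (all genes 41.2%, 42.2% and 42.0% against 32.6%), and 31, 39 and 36 against 33 in males (all genes 41.6%, 36.9% and 42.7% against 41.2%).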

How the results depend on the processing

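Of 158 results under an alternative, 135 stayed within the counting interval of the main share or, for body cover, within 1.5 times the main value, and 23 did not. No value moved under at least 50% of the peak in the window, the most upstream start only, the nearest start only, or body cover without Ttn and Neb. Lists of equal length moved 17 values, and the reason was not tested. The share of genes with a peak was then 65.3%, 73.5% and 63.3% at female days 4, 6 and 8 (all genes 41.2%, 42.2% and 42.0%). In vehicle-treated males it was 67.3% (all genes 41.2%). Losses were 18.4%, 16.3% and 18.4% in females at days 4, 6 and 8 (all genes 8.89%, 10.6% and 10.01%). In males they were 12.2% and 10.2% at days 4 and 8 (all genes 12.0% and 10.5%). Gains in males were 8.16%, 22.4% and 16.3% at days 4, 6 and 8 (all genes 12.5%, 9.96% and 12.0%). The share in every list was 24.5% (all genes 7.63%). Body cover was 11.4%, 10.1% and 14.1% at female days 4, 6 and 8 (all genes 2.05%, 2.63% and 2.60%). In vehicle-treated males body cover was 4.55% (all genes 1.30%). With a window of 1 kb, the share was 79.6% in vehicle-treated males (all genes 54.8%) and 38.8% in every list (all genes 16.6%). With a fold over input of at least 4, it was 61.2% at male day 6 (all genes 30.9%) and 34.7% in every list (all genes 11.6%). Losses at male day 6 were then 32.7% (all genes 35.5%). Without the male day 4 list, 71.4% had a peak in every remaining list (all genes 28.8%); leaving out any other list kept this share within its interval. The share of sarcomere genes was above that of all genes in all 8 lists under the 6 alternatives to the windows and peaks. No paired analysis was possible because the lists hold values per group, not per replicate, and for the same reason no replicate could be left out. Depth limits what an absent peak shows, most at male day 4.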

Other observations

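At Myl3, the single peak in the window at male day 4 had a fold over input of 55.5, at the 99.4th percentile of its list, but a normalized tag count of 7.98 per 10 M tags, at the 0.286th percentile by tags per kb. It was 500 bp wide and lay downstream of the gene, on chromosome 9 from 110770564 to 110771064.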
